A study of Mus musculus with 7 samples.

Results

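The enzymes that make purine and pyrimidine nucleotides, and those that turn them into the building blocks of DNA, were followed in erythroblasts that carried or lacked Sod2, the superoxide dismutase of mitochondria. A list of 35 genes was taken, 16 of purine synthesis and salvage, 8 of pyrimidine synthesis and salvage, 9 of deoxynucleotide synthesis and 2 nucleoside diphosphate kinases. Of these, 34 had a probe set (a group of array probes against part of a transcript) annotated to that gene alone, out of 18193 genes that had one, and together they held 78 of the 45037 probe sets tested. The remaining gene, Impdh2, had no probe set of its own in the annotation used, and its expression was not analysed here. Where a gene had several probe sets the one with the highest mean was used, and no filter was set on dim values.

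Erythroblasts were sorted by the surface markers TER-119 and CD71 from the marrow of irradiated mice that had been rebuilt with donor fetal liver cells. The sort took in several stages of maturation. The study reports a larger share of immature erythroblasts in Sod2-/- marrow, and sorted cells of similar size and morphology in both genotypes. The part of maturation stage in the values below was not tested. The hosts, C57BL/6 mice with the Ly5.1 form of CD45, were 11 to 15 weeks old at transplant, received 1050 rad and then drank chlorinated water for 21 days, and no age at harvest is stated. Donor cells came from mid-gestation littermate embryos, at the latest of embryonic day 16.5, on the B6 background, either Sod2+/+ (4 arrays, replicates 17, 29, 33 and 37) or homozygous for the Sod2tm1Cje allele, Sod2-/- (3 arrays, replicates 31, 35 and 39). The study also hybridised another Sod2-/- sample, which is not used here. The sort did not gate on donor CD45.2, so erythroblasts left from the host were not removed by it, and every cell other than the donor blood cells carried Sod2 in both groups.

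Purines are assembled atom by atom on a ribose phosphate until inosine monophosphate (IMP) is reached, from which AMP and GMP branch off. Pyrimidines are built as a ring first and then joined to the ribose, giving UMP and later CTP. Ribonucleotide reductase takes the sugar oxygen from the diphosphates, and a short thymidylate branch turns dUMP into dTTP, while salvage enzymes recycle bases and nucleosides. Erythroblasts divide several times in quick succession before they lose the nucleus, so they both copy DNA and transcribe at a high rate.

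A pair of the genes that lie head to head in the mouse genome, Paics and Ppat, and 2 further genes of the results below, Gart and Dtymk, are shown by the region around their annotated starts. Each window runs from 250 bases before to 50 bases after the start on the strand of the gene, in RefSeq's GRCm38.p6: chr5:76951052-76951351 on the plus strand for Paics, chr5:76951529-76951828 on the minus strand for Ppat, chr16:91646923-91647222 on the minus strand for Gart and chr1:93801885-93802184 on the minus strand for Dtymk. Capitals mark the letters CACGTG (E-box, the core bound by MYC and MAX), TTTCCCGC, TTTGGCGC, TTTCGCGC or TTTGCCGC (E2F) and CCAAT (the box bound by NFY), each on either strand.
Paics: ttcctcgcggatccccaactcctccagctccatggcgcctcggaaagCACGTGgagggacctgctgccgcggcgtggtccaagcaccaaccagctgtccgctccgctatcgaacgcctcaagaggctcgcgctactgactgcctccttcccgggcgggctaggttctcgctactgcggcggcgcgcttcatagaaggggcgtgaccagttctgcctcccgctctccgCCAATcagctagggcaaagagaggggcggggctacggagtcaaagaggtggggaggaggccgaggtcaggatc
Ppat: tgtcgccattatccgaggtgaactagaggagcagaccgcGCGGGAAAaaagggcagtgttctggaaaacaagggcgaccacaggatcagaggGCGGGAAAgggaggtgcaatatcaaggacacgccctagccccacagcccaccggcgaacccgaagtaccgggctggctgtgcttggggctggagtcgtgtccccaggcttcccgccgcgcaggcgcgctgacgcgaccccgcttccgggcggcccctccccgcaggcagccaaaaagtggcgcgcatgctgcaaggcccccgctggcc
Gart: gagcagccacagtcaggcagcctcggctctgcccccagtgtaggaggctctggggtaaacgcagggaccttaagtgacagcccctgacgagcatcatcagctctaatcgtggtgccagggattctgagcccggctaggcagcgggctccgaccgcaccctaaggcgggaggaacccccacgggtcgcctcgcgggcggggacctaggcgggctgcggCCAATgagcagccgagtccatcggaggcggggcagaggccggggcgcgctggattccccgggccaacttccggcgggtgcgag
Dtymk: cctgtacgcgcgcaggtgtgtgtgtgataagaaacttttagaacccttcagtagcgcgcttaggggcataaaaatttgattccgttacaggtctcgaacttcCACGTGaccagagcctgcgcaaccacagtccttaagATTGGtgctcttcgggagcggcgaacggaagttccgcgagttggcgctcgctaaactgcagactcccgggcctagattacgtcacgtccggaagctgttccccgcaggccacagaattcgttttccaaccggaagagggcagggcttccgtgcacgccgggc

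Paics and Ppat encode enzymes of the same route, are read in opposite directions, and overlap by 277 bases of annotated gene at their starts. Windows were found for 32 of the 35 genes, 9 of which had several. The E-box letters stood in the windows of 6 of the 32, Atic, Dtymk, Impdh2, Nme1, Paics and Tyms (18.8%, against 8.09% of 27025 genes with a window and 7.15% of all 32851 windows). E2F letters stood in Ppat and Prps2 (6.25%, against 2.6% of genes and 2.26% of windows), and CCAAT in 12 genes (37.5%, against 41.1% of genes and 37.4% of windows). Of the 6 genes that passed the test below, 2 held the E-box letters, 0 the E2F letters and 3 CCAAT. These matches describe letters in a window and show no binding.

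Before the enzymes are described, some properties of the arrays bear on them. Sod2 itself, on its brightest probe set, spanned 8.20 to 8.62 on Sod2+/+ arrays and 8.09 to 8.61 on Sod2-/- arrays, log2 scale (log2 fold change -0.04, SE 0.15, adjusted p = 0.913, limma), but its probe sets partly lie outside the deleted exon and so do not check the genotype. Of 10 measured erythroid markers 9 gave a strong signal on every array, the lowest value being 9.93 for Epor, while Hba-a1, a globin gene, was measured by a dim probe set (4.18 to 4.55). In all, 0 of the 10 passed the test in either direction by limma (2 higher and 0 lower at an unadjusted p under 0.05), the largest differences being 0.26 for Ank1 and 0.20 for Tfrc. Replicate 39 of Sod2-/- stood apart by its macrophage markers, whose linear values summed to 1539 against 456 to 626 on the other arrays, and replicate 35 by its neutrophil markers, which summed to 16650 against 23097 to 43701. Array values have no true 0, and no measure of background came with them, so a dim probe set may stand for a gene that is not expressed. In a sorted bulk sample fewer cells of a type and less RNA per cell cannot be told apart.

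Of the 34 enzymes, 6 fell in Sod2-/- erythroblasts and 0 rose (adjusted p under 0.05, limma over all probe sets). At an unadjusted p under 0.05 there were 19 lower and 1 higher. The methods' t-test with equal variances gave 0 in each direction after adjustment (13 lower and 0 higher before it). On these arrays it called 2 of all 18193 genes (0.011%). The study, whose comparison also held its other Sod2-/- array, reports many transcripts past its own adjusted threshold. The enzymes that fell were Gart, Paics, Adss and Gmps of purine synthesis and Dut and Dtymk of the thymidylate branch. This was 17.6% of the enzymes, beside 4.47% of all genes that fell and 0.412% that rose. The median log2 fold change, Sod2-/- minus Sod2+/+, was -0.38 over the enzymes and 0.02 over all genes, and 27 enzymes had a value below 0 and 7 above. In 13 enzymes every Sod2-/- array lay below every Sod2+/+ array (38.2%, beside 14.8% of all genes), and in 1, Uck2, every Sod2-/- array lay above (7.19% of all genes).

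**Figure D1:**
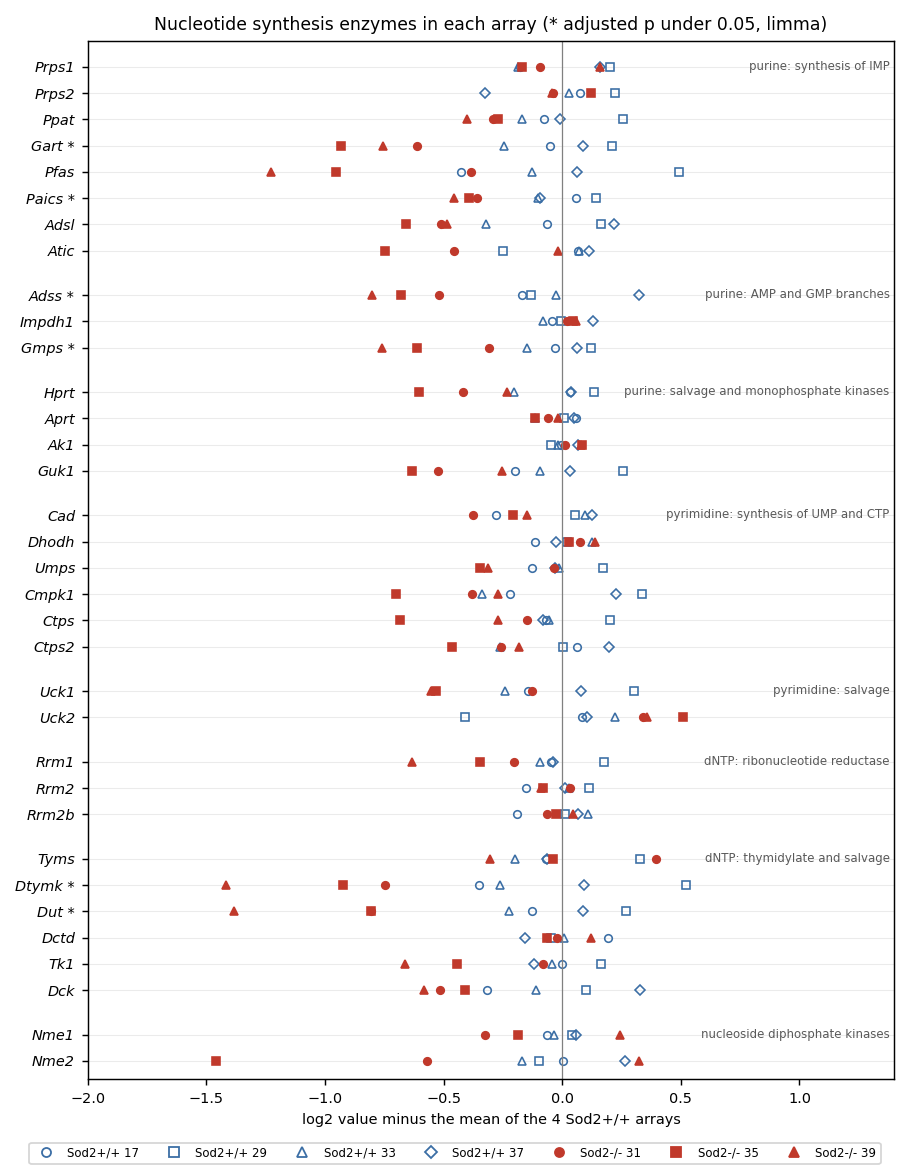
Log2 value of each enzyme in each array minus its mean over the 4 Sod2+/+ arrays (x axis), with 1 row per gene grouped by role, open blue symbols for Sod2+/+ and filled red symbols for Sod2-/- arrays. An asterisk marks the 6 enzymes past the threshold, in which the Sod2-/- arrays lie left of all Sod2+/+ arrays.

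Of the 8 genes of the route to IMP, Gart and Paics fell, 6 had an unadjusted p under 0.05, all of them lower, and the median log2 fold change was -0.40. Gart encodes the enzyme that carries out several separate reactions of the route. Its log2 values were 7.22, 7.48, 7.03 and 7.36 in Sod2+/+ replicates 17, 29, 33 and 37, and 6.66, 6.34 and 6.52 in Sod2-/- replicates 31, 35 and 39. The groups did not overlap, and Gart was 1.70-fold lower (log2 fold change -0.77, SE 0.12, adjusted p = 0.0225, limma). The 3 dimmer probe sets of Gart did not show this, with log2 fold changes from -0.16 to 0.05. Paics, which adds carbon dioxide and then aspartate to the growing ring, had 9.79, 9.88, 9.63 and 9.64 in Sod2+/+ and 9.38, 9.34 and 9.28 in Sod2-/- arrays. Its replicates lay close together, the SD being 0.12 and 0.05, and the drop was small (1.32-fold, log2 fold change -0.40, SE 0.08, adjusted p = 0.0381). All 3 Paics probe sets had lower means in Sod2-/-, from -0.62 to -0.40, and 2 of them passed the test.

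Neighbouring steps of the same route had values of like size without passing. Pfas, which acts midway along it, had the largest difference of the route and also the widest spread, with 5.92, 6.84, 6.22 and 6.41 in Sod2+/+ and 5.96, 5.39 and 5.12 in Sod2-/- arrays (log2 fold change -0.86, SE 0.24, adjusted p = 0.0930). Replicate 31 of Sod2-/- lay just above replicate 17 of Sod2+/+, so the groups overlapped. Adsl, the lyase that acts both on this route and on the way to AMP, had 5.02, 5.25, 4.77 and 5.31 against 4.58, 4.43 and 4.60 (log2 fold change -0.55, SE 0.13, adjusted p = 0.0580), with no overlap. Ppat, the amidotransferase that commits ribose phosphate to the route, had a log2 fold change of -0.32 (SE 0.10, adjusted p = 0.129), also with no overlap. Atic, which closes the ring, had -0.41 (SE 0.16, adjusted p = 0.219), and Sod2-/- replicate 39, at 7.58, lay within the Sod2+/+ range of 7.35 to 7.71. Prps1 and Prps2 are the synthetases that supply the activated ribose to purines and pyrimidines alike. On their brightest probe sets they showed almost no difference (log2 fold change -0.03, SE 0.13, and 0.01, SE 0.12). The dimmer probe sets of Prps2 had -0.58 (mean log2 value 5.05, SE 0.19, adjusted p = 0.141, limma), with no overlap, and 0.01 (SE 0.10).

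Both branches from IMP held an enzyme that fell. Adss, the synthetase that starts the AMP branch, had log2 values of 6.56, 6.59, 6.70 and 7.05 in Sod2+/+ and 6.20, 6.05 and 5.92 in Sod2-/- arrays (1.59-fold lower, log2 fold change -0.67, SE 0.13, adjusted p = 0.0341). Gmps, which completes GMP, had 8.60, 8.75, 8.48 and 8.69 against 8.32, 8.02 and 7.87 (1.48-fold lower, log2 fold change -0.56, SE 0.11, adjusted p = 0.0402). In both genes the groups did not overlap, and replicate 39 was the lowest array. Impdh1, a dehydrogenase of the GMP branch, had a log2 fold change of 0.04 (SE 0.07), with all 3 Sod2-/- arrays inside the Sod2+/+ range of 6.75 to 6.95.

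The purine salvage enzymes and monophosphate kinases numbered 4, of which 0 passed the test by limma and 2 were lower and 0 higher at an unadjusted p under 0.05. Hprt, which returns hypoxanthine and guanine to nucleotides, had 9.26, 9.36, 9.03 and 9.27 in Sod2+/+ and 8.81, 8.62 and 9.0 in Sod2-/- arrays (log2 fold change -0.42, SE 0.11, adjusted p = 0.0781). Guk1, the guanylate kinase, had -0.47 (SE 0.13, adjusted p = 0.0838). In both, the groups were separate but Sod2-/- replicate 39 came close to the lowest Sod2+/+ array. Aprt, the counterpart of Hprt for adenine, had -0.06 (SE 0.07) on its brightest probe set and -0.53 (SE 0.17, adjusted p = 0.122) on its other one, so the probe sets of Aprt gave different sizes. Ak1, an adenylate kinase best known from muscle and red cells, was dim (mean log2 value 4.23) and had 0.06 (SE 0.06).

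Among the 8 pyrimidine enzymes 0 passed the test by limma, and at an unadjusted p under 0.05 there were 4 lower and 1 higher. Their median log2 fold change was -0.27. Cad, the large protein that performs the first reactions of the route, had log2 values of 8.79, 9.13, 9.17 and 9.20 in Sod2+/+ and 8.69, 8.86 and 8.92 in Sod2-/- arrays (log2 fold change -0.24, SE 0.11, adjusted p = 0.269). Replicate 17 of Sod2+/+ lay among the Sod2-/- arrays. A dimmer probe set of Cad, of mean log2 value 5.10, passed the test (log2 fold change -0.59, SE 0.12, adjusted p = 0.0429), so Cad was the only gene of the 34 with a call on a probe set other than its brightest and none on its brightest. Dhodh, the one enzyme of the route that sits on the inner mitochondrial membrane and passes electrons to the respiratory chain, had 6.66, 6.80, 6.90 and 6.75 in Sod2+/+ and 6.85, 6.81 and 6.91 in Sod2-/- arrays (log2 fold change 0.08, SE 0.08, adjusted p = 0.618), and the groups overlapped.

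Further along the pyrimidine route, Umps, which finishes UMP, had a log2 fold change of -0.23 (SE 0.10, adjusted p = 0.259) and Cmpk1, the UMP and CMP kinase, -0.45 (SE 0.18, adjusted p = 0.210). The CTP synthetases Ctps and Ctps2 had -0.37 (SE 0.13, adjusted p = 0.169) and -0.30 (SE 0.12, adjusted p = 0.199). On the brightest probe sets of these 4 genes the groups were separate in Ctps alone. A dimmer Umps probe set, of mean log2 value 5.53, had -0.27 (SE 0.08, adjusted p = 0.0927), with no overlap. The remaining Umps probe sets, dimmer still, had 0.06 and -0.09, and their groups overlapped. Of the uridine and cytidine kinases of salvage, Uck1 had -0.40 (SE 0.15, adjusted p = 0.183). Uck2 was the single enzyme with higher values in every Sod2-/- array, at 6.74, 6.24, 6.88 and 6.76 in Sod2+/+ and 6.99, 7.16 and 7.01 in Sod2-/- arrays (log2 fold change 0.40, SE 0.14, adjusted p = 0.166). It did not pass, and 4 of its 5 other probe sets had the opposite sign, from -0.51 to -0.12.

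The deoxynucleotide enzymes split between ribonucleotide reductase, with 0 of 3 genes past the threshold by limma (1 lower and 0 higher at an unadjusted p under 0.05), and the thymidylate branch with salvage, with 2 of 6. Rrm1, the large subunit of the reductase, had log2 values of 10.69, 10.91, 10.64 and 10.70 in Sod2+/+ and 10.53, 10.39 and 10.10 in Sod2-/- arrays (log2 fold change -0.39, SE 0.11, adjusted p = 0.0961). The groups of Rrm1 were separate on this probe set, while its second brightest one had -0.04 (SE 0.22). Rrm2, the small subunit made in S phase, gave a strong signal and had 11.98, 12.24, 12.16 and 12.14 against 12.16, 12.05 and 12.04 (log2 fold change -0.05, SE 0.08, adjusted p = 0.809). All 3 Sod2-/- arrays lay inside the Sod2+/+ range of Rrm2, and its other probe sets had -0.20 and 0.01. Rrm2b, the small subunit induced by p53, was dim (mean log2 value 4.68) and had -0.01 (SE 0.09).

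Dut and Dtymk showed the largest drops of the enzymes, both about 2.00-fold. Dut hydrolyses dUTP, which keeps uracil out of DNA and yields dUMP for the thymidylate branch. Its log2 values were 8.30, 8.70, 8.21 and 8.52 in Sod2+/+ and 7.63, 7.63 and 7.05 in Sod2-/- arrays (2.00-fold lower, log2 fold change -1.0, SE 0.17, adjusted p = 0.0258). The groups were far apart, but a second, dim probe set of Dut (mean log2 value 4.71) had 0.06 (SE 0.08). Dtymk, the thymidylate kinase, had 7.99, 8.87, 8.08 and 8.43 against 7.60, 7.42 and 6.93 (2.04-fold lower, log2 fold change -1.03, SE 0.23, adjusted p = 0.0485). Its adjusted p was just under the threshold, and all 3 Dtymk probe sets had lower means in Sod2-/-, from -1.03 to -0.64, with 2 past the threshold. In both genes replicate 39 was the lowest array, and without it the log2 fold changes were -0.80 for Dut (adjusted p = 0.0455) and -0.83 for Dtymk (adjusted p = 0.119).

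Tyms, the thymidylate synthase between them, had 5.10, 5.50, 4.97 and 5.11 in Sod2+/+ and 5.57, 5.13 and 4.87 in Sod2-/- arrays (log2 fold change 0.02, SE 0.17). Its probe sets annotated to the gene alone were all dim, with means of 5.18 or less, so the level of Tyms was poorly measured here. Dctd, the dCMP deaminase that also feeds dUMP, was dim (mean log2 value 3.96) and had 0.01 (SE 0.09). Of the salvage kinases, Tk1, the thymidine kinase of S phase, had a log2 fold change of -0.40 (SE 0.13, adjusted p = 0.145) and Dck, the deoxycytidine kinase, -0.50 (SE 0.14, adjusted p = 0.0910). The groups were separate in Dck and overlapped in Tk1, where Sod2-/- replicate 31, at 10.41, lay above Sod2+/+ replicate 37, at 10.37. The other probe sets of Dck, of mean log2 values 8.15 and 7.44, had -0.43 (SE 0.15) and 0.16 (SE 0.16). On both of these the groups overlapped.

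The nucleoside diphosphate kinases, which pass phosphate between all the triphosphates, were the least even. Nme2 had log2 values of 7.87, 7.77, 7.70 and 8.13 in Sod2+/+ and 7.29, 6.40 and 8.19 in Sod2-/- arrays (log2 fold change -0.57, SE 0.34, adjusted p = 0.410). Replicate 39 of Sod2-/- was the highest array and replicate 35 the lowest, and the SD over the Sod2-/- arrays, 0.89, was the largest of any enzyme. On its brightest probe set Nme1 had -0.09 (SE 0.13, adjusted p = 0.758), again with replicate 39 the highest array, at 8.40. Its other probe set, of mean log2 value 7.75, had -0.30 (SE 0.14, adjusted p = 0.267). There replicate 39, at 7.86, lay inside the Sod2+/+ range of 7.70 to 7.96. The brightest probe set of Nme1 carries the suffix that marks probes shared with other transcripts, and Nme1 lies beside its close relative Nme2, so signal from one on the probes of the other was not separated.

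**Figure D2:**
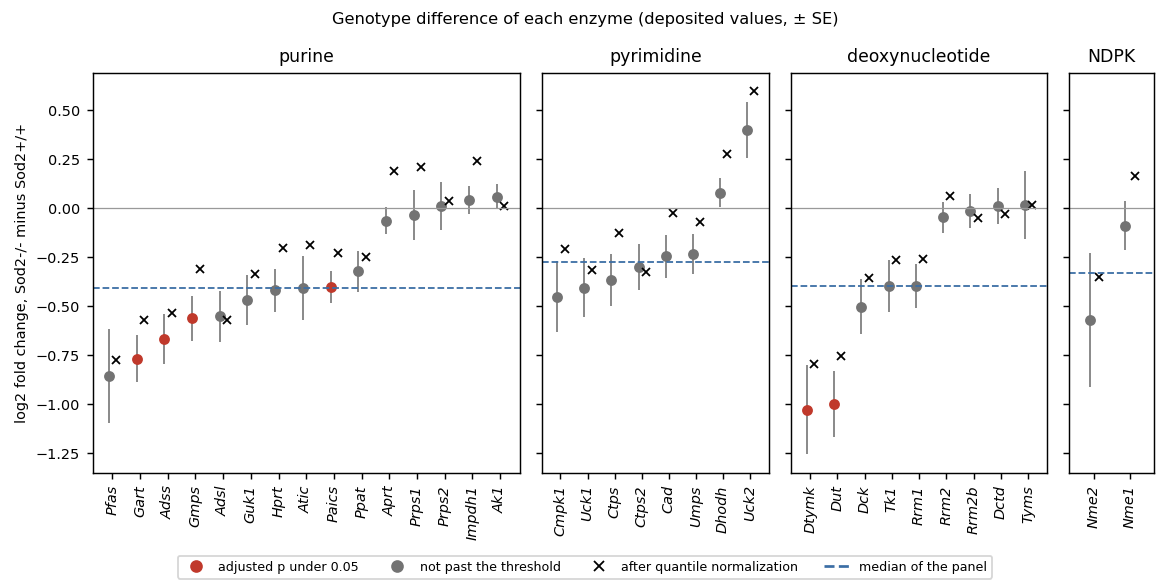
Log2 fold change of each enzyme, Sod2-/- minus Sod2+/+, in 4 panels for the purine, pyrimidine and deoxynucleotide enzymes and the nucleoside diphosphate kinases (NDPK). Circles with SE bars give the deposited values, red where the adjusted p is under 0.05, crosses the values after quantile normalization, and dashed lines the panel medians of -0.41, -0.27, -0.39 and -0.33.

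Set side by side, the steps had medians of -0.41 for 15 purine, -0.27 for 8 pyrimidine and -0.39 for 9 deoxynucleotide enzymes. Calls were made in 4, 0 and 2 of them. After quantile normalization the medians were -0.23, -0.10 and -0.26. Every Sod2-/- array lay below every Sod2+/+ array in 8, 1 and 4 of them, beside 14.8% of all genes. A difference between the steps was not tested. Related enzymes were compared by the difference of their log2 values within each array (exact two-sided permutation test over all 35 splits of the arrays, 5 pairs, smallest possible p = 0.0286). Uck1 and Uck2 gave the largest shift, the log2 ratio of Uck1 to Uck2 being 0.80 lower in Sod2-/- than in Sod2+/+ (difference -0.80, exact p = 0.0571, 0.286 adjusted over the 5 pairs). Since it compares 2 probe sets, the shift between the groups can be read and the ratio itself cannot. The Sod2-/- arrays spanned -1.52 to -0.94 and the Sod2+/+ arrays -0.94 to 0.24, so the groups met at the edge, and the ratio used the brightest probe set of Uck2, whose sign 4 of its 5 other probe sets did not share. For Nme1, on its brightest probe set with the suffix for shared probes, to Nme2 the shift was 0.48 (exact p = 0.171, adjusted 0.429). For Prps1 to Prps2, Ctps to Ctps2 and Rrm2 to Rrm2b it was -0.05, -0.07 and -0.03 (exact p = 0.771, 0.714 and 0.686).

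The probe sets of the enzymes were brighter than most, and bright genes were lower in Sod2-/- as a whole. Brightness depends on the probes and is no level that can be set against that of another gene. The median enzyme had a mean log2 value of 7.18, against 5.02 for all genes, and 22 of the 34, including all 6 that fell, had a mean from 6 to 10. Among all 5065 genes in that range 12.6% fell and the median log2 fold change was -0.23, against 27.3% and -0.41 for the 22 enzymes. Whether the enzymes differ from genes of like brightness was not tested. After quantile normalization of the deposited values, 3 enzymes were lower (Gart, Adss and Dut) and 0 higher by limma, beside 2.78% of genes lower and 1.43% higher. The calls over all genes then changed from 813 lower and 75 higher to 506 lower and 260 higher, and the median of the enzymes from -0.38 to -0.21, with that of all genes at 0.01. For the 22 enzymes of that brightness it became -0.21, against -0.03 for genes of the same range. Under this scaling 5 uncalled enzymes changed sign, namely Prps1, Aprt, Rrm2, Dctd and Nme1, each with a log2 fold change between -0.09 and 0.01 before it.

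**Figure D3:**
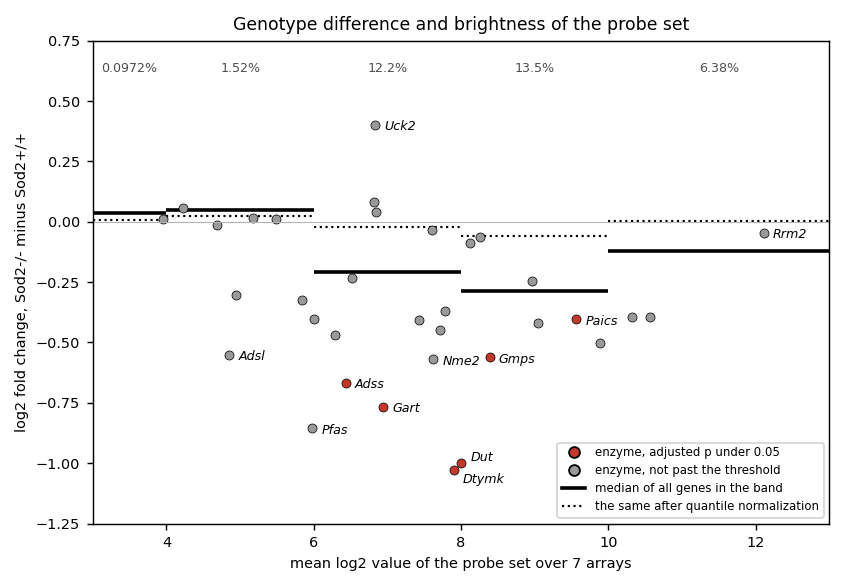
Log2 fold change of each enzyme, Sod2-/- minus Sod2+/+ (y axis), against the mean log2 value of its probe set over 7 arrays (x axis). Black lines give the median of all genes in each brightness band (dotted after quantile normalization) and the percentages the share of those genes that fell. The 6 enzymes that fell (red) lie between 6 and 10, where the medians of all genes are -0.21 and -0.29.

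The calls depended on single arrays, over all genes as well as in the enzymes. Leaving out each array in turn gave 3 enzymes lower without Sod2+/+ replicate 17, 0 without replicate 29, 5 without replicate 33 and 0 without replicate 37, and 5 without Sod2-/- replicate 31, 0 without replicate 35 and 1, Dut, without replicate 39. The share of all genes that were lower in the same fits was 2.31%, 0.786%, 4.09%, 0.605%, 3.63%, 0.352% and 1.3% in that order, each below the 4.47% with all 7 arrays. At an unadjusted p under 0.05 these fits had 14 to 19 enzymes lower, 15 where replicate 29 or 37 and 14 where replicate 35 was left out. Of the 6 enzymes 0 passed in all 7 of these fits: Dut passed in 4, Gart in 3, Adss and Gmps in 2, Paics in 1 and Dtymk in 0, with adjusted p from 0.0303 to 0.0724 for Dut, 0.0216 to 0.0795 for Gart and 0.0544 to 0.127 for Dtymk. Their log2 fold changes stayed below 0 in every one of these fits, for Gart from -0.85 to -0.68 and for Paics from -0.44 to -0.36.

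The arrays had been processed on 2 fluidics stations and came from 2 chip lots. With the station as a block, 4 enzymes were lower (Dut, Gart, Gmps and Paics), beside 2.70% of all genes. Within station 1 (Sod2+/+ replicates 17 and 29, Sod2-/- replicate 31) the log2 fold changes of the 6 ran from -0.87 for Dut to -0.36 for Gmps, and within station 2 (33, 37, 35 and 39) from -1.08 for Dtymk to -0.33 for Paics, with 0 past the threshold by limma in either (7 enzymes lower at an unadjusted p under 0.05 in station 1 and 16 in station 2). In neither station did any gene pass (0 of 18193). All Sod2+/+ arrays shared a lot with Sod2-/- replicate 35, and with the lot as a block Gart alone passed (log2 fold change -0.93, adjusted p = 0.0444), beside 2.54% of all genes. Since the other Sod2-/- arrays had a lot to themselves, the blocked difference is that of replicate 35 from the Sod2+/+ arrays. In that lot alone, against the single array of replicate 35, which was assumed to vary like the others, Nme2 was the 1 enzyme past the threshold (log2 fold change -1.46, adjusted p = 0.0352), beside 1.62% of all genes.

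**Figure D4:**
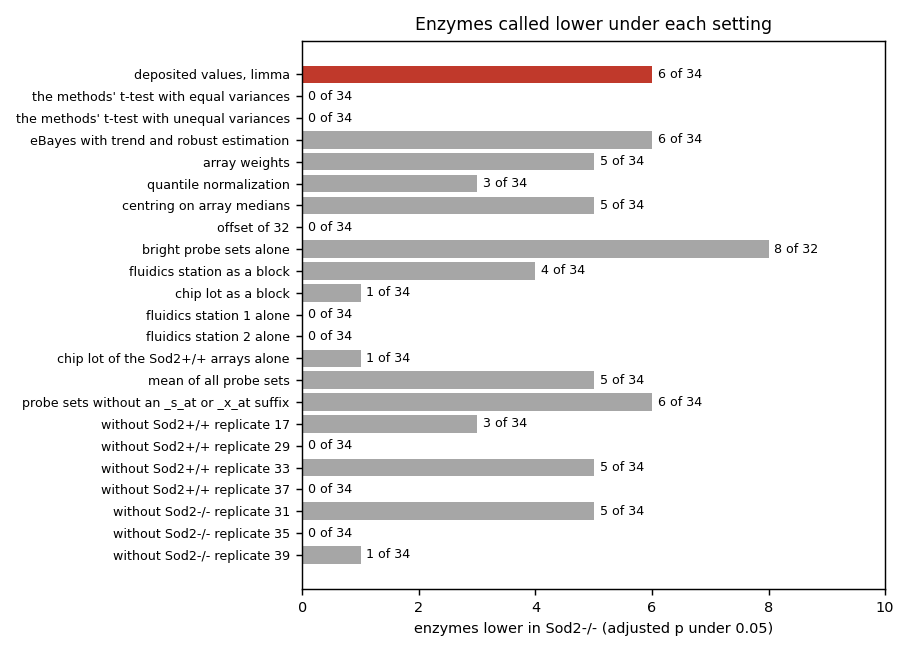
Number of enzymes lower in Sod2-/- at an adjusted p under 0.05 (x axis) in the main comparison (red, 6 of 34) and under each alternative test, scaling, block or set of arrays (grey). The number ranges from 0 to 8 and no setting gave a higher enzyme. The 8 came with bright probe sets alone, where 11.1% of genes were lower, beside 4.47% in the main comparison.

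Array by array, the mean deviation of the 34 enzymes from their Sod2+/+ mean ran from -0.09 to 0.12 in Sod2+/+ arrays and was -0.25, -0.40 and -0.32 in Sod2-/- replicates 31, 35 and 39. Purine enzymes were lowest in replicate 35 (-0.43) and deoxynucleotide enzymes in replicate 39 (-0.55). A list of 20 S phase genes held the MCM helicase, PCNA, clamp loader and other replication genes. In Sod2-/- replicates 31, 35 and 39 these stood at -0.25, -0.39 and -0.80, the same order as the deoxynucleotide enzymes. The order of the Sod2+/+ arrays differed. Replicate 17 was the lowest of them for the deoxynucleotide enzymes (-0.12) and replicate 33 for the S phase genes (-0.08). All 20 had a log2 fold change below 0, with a median of -0.49. Of them 3 fell (15.0%, beside 4.47% of all genes), Rfc3 (-0.91), Rfc4 (-0.79) and Gins2 (-0.37). Rrm2 at -0.05 and Tk1 at -0.40, both also made in S phase, lay above that median. Of the other deoxynucleotide enzymes, Dut (-1.0), Dtymk (-1.03) and Dck (-0.50) lay below it. Rrm1 (-0.39), Rrm2b (-0.01), Tyms (0.02) and Dctd (0.01) lay above it. Whether the enzymes follow the S phase genes was not tested.

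Markers of other marrow cells moved with the genotype too. Of 14 B cell markers 7 fell, and their linear values summed to between 920 and 1110 in Sod2+/+ and between 528 and 628 in Sod2-/- arrays. All 14 had a log2 fold change below 0, and the largest were -1.78 for Cd79a and -1.58 for Cd79b, the signalling chains of the B cell receptor, -1.68 for the transcription factor Spib and -1.26 for Ms4a1, the surface protein CD20. Pax5 and Ebf1, factors that define the lineage, were dim in both groups, near the median of the array (4.45 to 4.54), with -0.01 each. Of 13 neutrophil markers 0 passed by limma, 11 being lower and 0 higher at an unadjusted p under 0.05, with sums of 34932 to 43701 and 16650 to 34761, and the largest differences were -1.05 for Camp (adjusted p = 0.0646) and -1.05 for Fcnb (adjusted p = 0.0750). Of 7 eosinophil and mast cell markers 3 fell, the granule genes Epx (-1.87), Prg2 (-1.83) and Mcpt8 (-1.35), with sums of 1030 to 2226 and 377 to 643. Cpa3, Ms4a2, Fcer1a and Siglecf, dim at mean log2 values of 3.81 to 4.63, had -0.19, -0.03, -0.15 and -0.23 and did not pass. Of 11 macrophage markers 0 passed by limma (0 lower and 1 higher unadjusted), the largest differences being 1.70 for C1qc (adjusted p = 0.311) and 1.27 for C1qb (adjusted p = 0.395). The part of these cells in the values of the enzymes was not tested. The ratio of 3' to 5' signal of Gapdh, a sign of RNA quality, was 1.24 to 1.45 in Sod2+/+ and 1.10 to 1.21 in Sod2-/- arrays on the log2 scale, and that of beta-actin was 0.67 to 0.87 and 0.69 to 0.78, so the groups were separate for Gapdh and overlapped for beta-actin. The part of RNA quality in the result was not tested either.

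**Figure D5:**
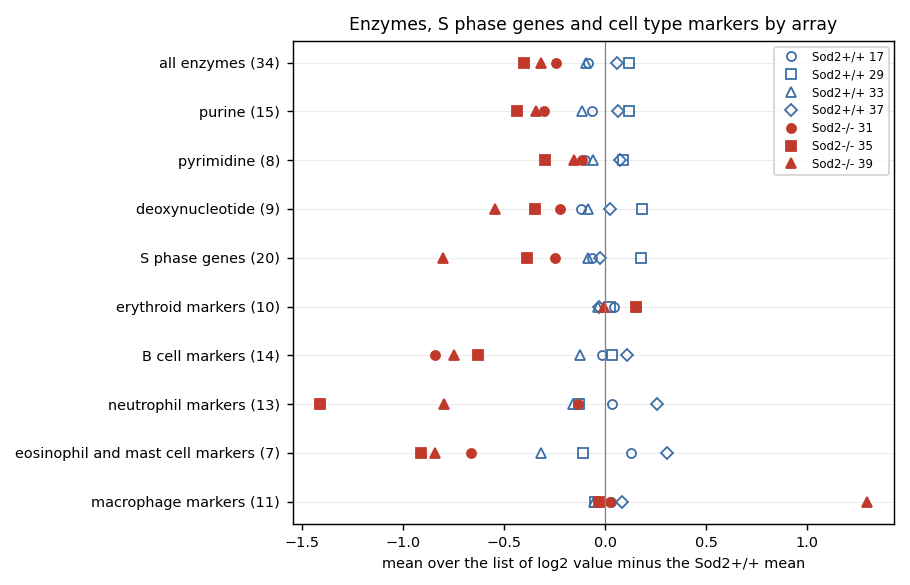
Mean over each list of genes of the log2 value minus the Sod2+/+ mean (x axis) in each array, open blue for Sod2+/+ and filled red for Sod2-/-, with the number of genes in brackets. The enzymes lie at -0.25 to -0.40 in Sod2-/- arrays, the S phase genes at -0.25 to -0.80, the neutrophil markers at -0.14 to -1.41, and the macrophage markers at 1.3 in replicate 39 alone.

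Other genes of nucleotide metabolism that lie outside the synthesis routes were set beside the enzymes. Of 16 measured kinases and interconversion enzymes 3 fell and 0 rose, namely Adk, the adenosine kinase (log2 fold change -0.84, adjusted p = 0.0378), Ak3, the mitochondrial adenylate kinase that uses GTP (-0.51, adjusted p = 0.0286), and Tk2, the mitochondrial thymidine kinase (-0.44, adjusted p = 0.0439). Their list had a median of -0.28, and 18.8% of it fell, beside 4.47% of all genes. Of 21 genes of breakdown, pool cleaning and transport 1 fell, Nudt1, which removes oxidised purine triphosphates such as 8-oxo-dGTP, with 6.76, 6.76, 6.67 and 6.72 in Sod2+/+ and 6.10, 5.95 and 6.06 in Sod2-/- arrays (log2 fold change -0.69, adjusted p = 0.00542). The median of that list was -0.01, and 4.76% of it fell.

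Folate enzymes, which supply the one-carbon units for purines and thymidylate, went in both directions. Of 13, 1 fell (7.69%, beside 4.47% of all genes) and 1 rose (beside 0.412% of all genes). At an unadjusted p under 0.05 there were 2 lower and 3 higher. Shmt2 had the largest difference of the list (log2 fold change 1.88, SE 0.60, adjusted p = 0.128). It did not pass, and its groups overlapped. Mthfd1, the cytosolic enzyme that makes the formyl group used by Gart and Atic, fell (log2 fold change -0.64, adjusted p = 0.0161), with 7.96, 8.04, 7.91 and 7.80 against 7.39, 7.14 and 7.34. Mthfd2, its mitochondrial counterpart, rose (log2 fold change 1.73, adjusted p = 0.0413), with 9.99, 8.80, 8.54 and 8.86 in Sod2+/+ and 10.83, 10.19 and 11.31 in Sod2-/- arrays, and replicate 17 stood above the other Sod2+/+ arrays. Of 21 transcription factors known to act on nucleotide genes 0 passed by limma, 7 being lower and 1 higher at an unadjusted p under 0.05. The largest differences among them were 0.60 for Atf4 (adjusted p = 0.142) and -0.50 for Rbl2 (adjusted p = 0.164), and Myc, dim at a mean log2 value of 4.12, had -0.12.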

How the data were processed

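RNA of 4 Sod2+/+ and 3 Sod2-/- erythroblast samples was measured on Affymetrix mouse genome arrays. The values are log2 intensities that the authors made by RMA (background correction, scaling to a common distribution, summary per probe set) and deposited; the submitters' processing notes also name GCOS 1.3.037. They were used as deposited, although a further quantile normalization of the probe set values still moved medians and calls, as given above. After removal of 64 controls, 45037 probe sets were tested, 34945 of them annotated to 1 gene, 932 to several and 9160 to none. Bright probe sets shared by Tyms or Prps1 with another gene were thus not used. A linear model with genotype as its single term was fitted with lmFit and eBayes (limma 3.58.1, R 4.3.3), p-values were adjusted over all probe sets (Benjamini-Hochberg), and the threshold was 0.05, and every adjusted p is from this fit unless another is named. Alternatives were the methods' t-test, trended robust and weighted fits (statmod 1.5.0), other scalings, an offset of 32, bright probe sets alone (mean over 4.48), station and lot, other choices of probe set, and each array left out. The code was tested on simulated data. Every member measured was named. Of the other lists described, up to 4 genes that passed the test were named, or else the 2 with the widest difference. Pax5, Ebf1, Epor, Hba-a1, Myc, Shmt2, Cpa3, Ms4a2, Fcer1a and Siglecf were named after their values were seen. The members and lists were chosen with earlier results of these data known. The study also names purine and pyrimidine metabolism among the pathways that differed between the genotypes. The calls are thus no independent evidence. The study describes its replicates as biological; with 7 arrays the number of arrays limits the precision. Coordinates and promoter windows are RefSeq's for GRCm38.p6. Protein features were not analysed here.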

Additional observations from a re-analysis of the deposited data

Results flagged for a closer look

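In 2 of the 34 enzymes a single Sod2+/+ array lay far from the other 3, and chance gives such a gap in about 1 of 20 groups. Both gaps were in replicate 29, which had the lowest Atic value of its group, 7.3501 on the log2 scale against 7.66 to 7.71 on the others, and the highest Ctps value, 8.1409 against 7.86 to 7.88. Atic then overlapped with the Sod2-/- arrays and Ctps did not.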

How the results depend on the processing

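All 22 alternatives gave 0 higher enzymes, and the 6 that fell had negative log2 fold changes in each of them. The counts of lower enzymes moved more. Both forms of the methods' t-test and the offset of 32 gave 0 in all, 0 of purine and 0 of deoxynucleotide synthesis, with a median log2 fold change of -0.2645 under the offset. Of all genes the t-test called 0.011% lower with equal variances and 0 with unequal ones. The offset called 0.649% of them lower, beside 4.47% in the main comparison. Quantile normalization gave 3, of which 2 were purine and 1 deoxynucleotide enzymes (median -0.2066). Array weights, centring and the station block each left 1 deoxynucleotide enzyme. The chip lot as a block gave 1, with 1 of purine and 0 of deoxynucleotide synthesis. Station 1 alone gave 0 (0 and 0, median -0.2793), station 2 alone 0 (0 and 0), and the lot of the Sod2+/+ arrays alone 1 (0 and 0). With the mean of all probe sets the median was -0.2235. Leaving out each array in turn gave 0 to 5 enzymes, 0 to 4 of purine and 0 to 2 of deoxynucleotide synthesis, and medians from -0.4004 to -0.2495. The cause of these moves was not tested, except that single stations hold 3 or 4 arrays. Of 746 values of single enzymes under the alternatives, 81 lost a call and 7 gained one. Changes of sign occurred in uncalled enzymes alone, among them Uck2, which turned negative with the mean of its probe sets and without the suffixed ones. No paired analysis was possible because the labels speak of samples of both genotypes sorted side by side but do not say which arrays form a pair, and the groups share no replicate number. The dim probe sets of Tyms, Dctd, Ak1 and Rrm2b limit what could be seen for them.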
